A study of Homo sapiens with 20 samples.

Results

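The comparison described here sets K562 cells from which a stretch of DNA called silencer 2 had been cut out with CRISPR (S2KO) against K562 cells given an empty vector (EV). It rests on 4 of the 20 RNA-seq libraries of the study, replicates 1 and 2 of each group, and the libraries were picked by their labels alone. K562 is an established human erythroleukemia line. The series has 10 groups with n = 2 libraries each. Besides EV and S2KO, 2 more excision groups are used for direct tests: S1KO, which lacks silencer 1, and DKO, which lacks both silencers. All 4 groups are cells of the same line with no drug named in their labels, EV being labelled as untreated, and the drug-treated groups are not analysed here. The labels do not say whether an excised line was grown from 1 clone, in which order DKO lost its silencers, or how far the excisions reach, so what a line carries besides its excision cannot be told apart from the excision.

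Silencers are DNA elements that lower the transcription of genes they contact, as enhancers raise it. Many carry histone H3 lysine 27 trimethylation, the mark set by EZH2 in Polycomb repressive complex 2 (PRC2), and others are bound by REST, a zinc finger repressor that keeps neuronal genes off outside the nervous system. The study perturbs silencers that contact FGF18 on chromosome 5q35. FGF18 encodes a secreted fibroblast growth factor that signals through FGF receptor tyrosine kinases and is known from bone, cartilage and lung development. K562 cells keep part of the red cell program, with embryonic and fetal globins, and carry the transcription factors GATA1 and TAL1.

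The 4 libraries held 81110012 and 87677945 gene-level estimated counts in EV and 79320594 and 76457649 in S2KO. All 12 markers fixed for K562 were at 1 CPM (counts scaled to library size) or more in all 4 libraries, for example 80.4 and 71.1 CPM of GATA1 in EV and 105 and 92.6 in S2KO. The few markers fixed for other cell types summed to at most 95.4 CPM per library in any class, of which EPCAM made up 91.8. MPO, ELANE, MS4A1 and CD79A were too low to be tested. Longer lists of such classes, used below, summed to more. The fibroblast and epithelial list, which holds VIM, had 1638 and 1771 CPM in EV and 914 and 899 in S2KO. The myeloid list reached 281 CPM in EV replicate 2. In bulk RNA, fewer cells of a type and less RNA per cell cannot be told apart. In both groups replicate 2 departed from replicate 1. TFRC, the transferrin receptor, had 1168 and 518.8 CPM in EV and 1275 and 467.6 in S2KO, and ribosomal protein mRNAs took 6.45% and 7.77% of counts in EV and 6.33% and 7.67% in S2KO. All genes of the mitochondrial genome together took 0.651% and 0.541% in EV and 0.470% and 0.468% in S2KO. Their part in the results below was not tested. With n = 2 per group the smallest p of an exact permutation test is 0.333. All p-values therefore come from edgeR's quasi-likelihood model, and they measure only the spread between libraries, which may be technical. That spread is pooled over the 8 excision libraries, and it was unequal: above 8 CPM the SD of the log2 difference between replicates was 0.599 in EV, 0.609 in S2KO, 0.432 in S1KO and 0.155 in DKO.

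FGF18 did not rise detectably when silencer 2 was gone. It had 9 and 0 estimated counts in EV and 9 and 2 in S2KO, that is 0.114 and 0 CPM against 0.116 and 0.0263. In both groups replicate 1 had 9 counts and replicate 2 had nearly none, so the groups overlap. The fitted difference was log2 0.34 ± 1.36 (edgeR adjusted p = 0.992), and at this depth it says little, since 1 library decides its sign: it was 5.52 without EV replicate 1 and -0.66 without EV replicate 2. DKO had 0.274 and 0.258 CPM, with no call against S2KO (adjusted p = 0.5004). The stretch around the FGF18 start, 250 bases before to 50 after it (RefSeq, GRCh38.p14, chr5:171419397-171419696, plus strand), is shown because FGF18 is the gene at which the study looks. Capitals mark its 38 CG pairs, against a median of 25 over the 12284 promoters of tested genes.

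FGF18: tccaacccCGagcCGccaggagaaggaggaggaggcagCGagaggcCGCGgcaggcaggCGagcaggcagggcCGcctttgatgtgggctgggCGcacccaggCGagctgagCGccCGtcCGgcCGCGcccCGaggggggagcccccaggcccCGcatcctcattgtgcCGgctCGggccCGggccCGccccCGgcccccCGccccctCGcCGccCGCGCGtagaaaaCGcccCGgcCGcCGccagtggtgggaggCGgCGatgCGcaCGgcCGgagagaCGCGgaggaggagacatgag

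Of the 17 tested genes among 22 listed for 5q35, FGF18 included, 3 were called and all 3 were lower in S2KO, while over all 21285 tested genes 2.01% were called, 1.45% higher and 0.554% lower. DOCK2, an activator of the GTPase RAC in blood cells, had 123 and 159 CPM in EV and 9.69 and 22.2 in S2KO. It fell by 3.15 on the log2 scale (± 0.42 SE, edgeR adjusted p = 0.0181). Both S2KO libraries were far below both EV libraries, and S1KO (8.87 and 11.4) and DKO (13.5 and 9.95) were at the S2KO level, with adjusted p = 0.677 and 0.623 against it. LCP2, the adaptor SLP-76 of antigen receptor signalling, went from 21.4 and 23.7 to 5.92 and 8.14 CPM (log2 -1.68 ± 0.30, adjusted p = 0.0499). C5orf58, an open reading frame between them, was low in both groups, at 0.202 and 0.251 CPM in EV and 0.0257 and 0.0394 in S2KO (log2 -2.74 ± 0.35, adjusted p = 0.0143). In S1KO it stood at 13.3 and 11.5 CPM and in DKO at 16.4 and 16.96, so that S2KO was lower than S1KO (log2 -8.51 ± 0.34, adjusted p = 0.000521). The counts of C5orf58 in S2KO are 5 in all.

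All 3 calls near FGF18 depend on single libraries. That of DOCK2 was lost without EV replicate 1 (adjusted p = 0.0517) or EV replicate 2 (0.0663), and that of C5orf58 without EV replicate 2 (0.0667), S2KO replicate 1 (0.0757) or S2KO replicate 2 (0.0656). LCP2 lost its call without any 1 of the 4 libraries (0.104 to 0.164). The other neighbours gave values with no call. STK10, a kinase of lymphocytes, had 13.95 and 13.5 CPM in EV and 5.28 and 7.82 in S2KO (log2 -1.07, adjusted p = 0.0804), with S2KO lower than S1KO (log2 -1.57, adjusted p = 0.0296). SH3PXD2B, a scaffold of invasive cell protrusions, had 0.101 and 0.275 CPM in EV and 0.991 and 1.85 in S2KO (log2 2.90, adjusted p = 0.0637). NPM1, the nucleolar protein gene next to FGF18, had 2574 and 2124 CPM in EV and 2150.0 and 1537 in S2KO (log2 -0.35, adjusted p = 0.7002). For the remaining 10 tested neighbours log2 differences ran from -0.74 (ERGIC1) to 1.61 (UBTD2) with adjusted p of 0.177 or more.

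**Figure D1:**
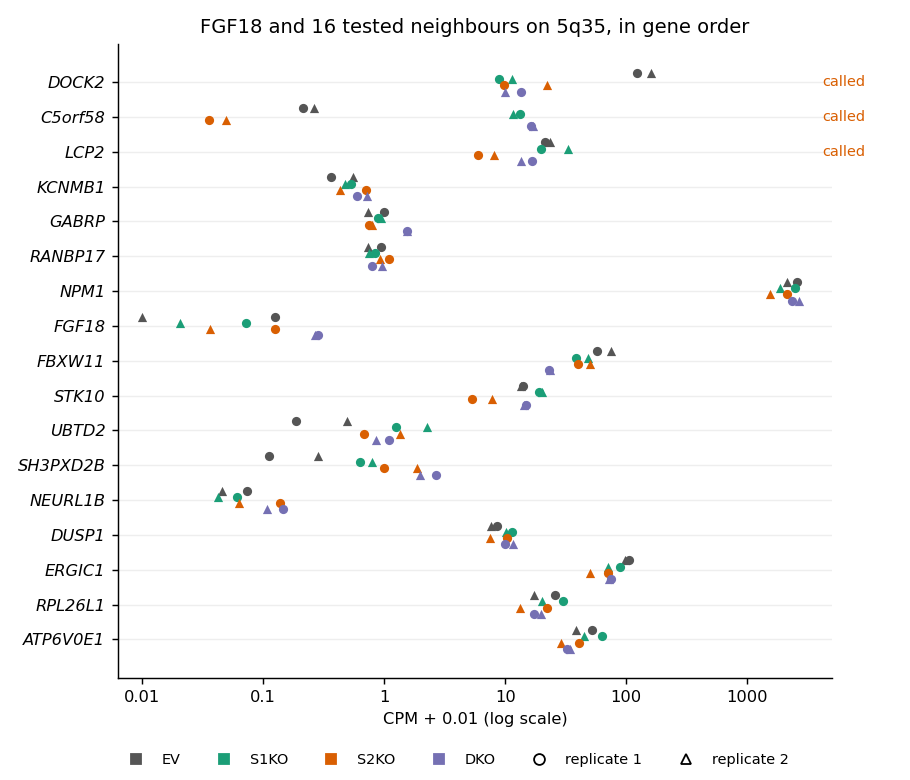
CPM of FGF18 and its 16 tested neighbours on 5q35 in gene order, on a log scale with 0.01 added, for all 8 excision libraries (colour gives the group, circles replicate 1, triangles replicate 2). DOCK2, C5orf58 and LCP2 are called between S2KO and EV. DOCK2 is low in all 3 excised groups, C5orf58 is low in EV and S2KO only, and FGF18 stays below 0.3 CPM in all 8 libraries.

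The genes of the repressors named in the study's title gave no call. EZH2 had 206 and 181 CPM in EV and 224 and 235 in S2KO (log2 0.25 ± 0.17, edgeR adjusted p = 0.705), and REST had 81.2 and 75.04 CPM in EV and 81.4 and 78.3 in S2KO (log2 0.03 ± 0.14, adjusted p = 0.992). Over all tested genes 2.01% were called, and none of 12 tested PRC2 subunits and cofactors was. Among REST and its corepressors 1 of 16 was, CTDSPL, a small phosphatase that REST recruits, which rose from 15.6 and 15.2 to 29.7 and 32.1 CPM (log2 1.00 ± 0.16, adjusted p = 0.0301) and lost its call without any 1 library (0.0779 to 0.145).

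Across the transcriptome 427 genes were called between S2KO and EV, 309 higher and 118 lower in S2KO. Of these, 325 are protein-coding, 49 lincRNAs and 11 antisense RNAs, and 414 differed by more than 2-fold. The median called rise was log2 3.24 and the median called fall -2.36, against a median of 0.018 over all tested genes. Most rises began from near silence, 216 of 309 having an EV mean below 1 CPM (69.9%), while 42 of the 118 falls ended below 1 CPM. The groups did not overlap in 31.8% of all tested genes. The number of calls leans on single libraries. It was 157 without EV replicate 1, 169 without EV replicate 2, 329 without S2KO replicate 1 and 226 without S2KO replicate 2, and 120 of the 427 calls held in all 4 of these fits. With only the EV and S2KO libraries in the model edgeR called none, although 1347 genes had an unadjusted p under 0.05, and it called 2682 once the replicate number was added as a block.

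**Figure D2:**
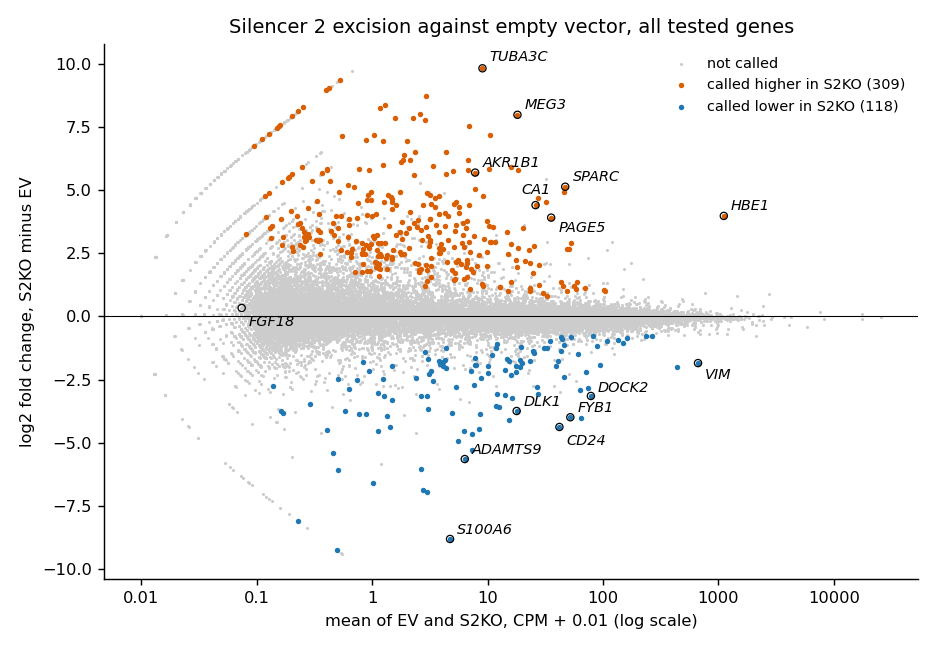
Log2 fold change of S2KO against EV (vertical) by mean level of both groups in CPM with 0.01 added (horizontal, log scale) for the tested genes, with called rises in orange (309) and called falls in blue (118). Rises outnumber falls and many lie below 10 CPM. FGF18 sits near 0 change at the low end, and HBE1 and VIM are among the most abundant called genes.

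The largest rises were genes all but absent from EV. TUBA3C, a testis alpha-tubulin gene with near-identical copies in the genome (chromosome 13), had 0.0253 and 0.0119 CPM in EV, 3 counts in all, and 15.3 and 20.7 CPM in S2KO. The ratio was 976, 95% counting interval 334 to 4736 (edgeR adjusted p = 0.000588). IKZF3, the lymphoid zinc finger factor Aiolos, went from 0.0379 and 0.0119 to 5.999 and 5.36 CPM (log2 7.76 ± 0.48, adjusted p = 0.00131). EPSTI1, an interferon-induced gene, had 0.0126 and 0.0239 CPM in EV and 2.61 and 7.79 in S2KO (ratio 281, 95% counting interval 95.8 to 1365, adjusted p = 0.00556). MYO1H, a class I myosin, had 0.0253 and 0 CPM in EV and 6.48 and 5.1001 in S2KO (ratio 472, 95% counting interval 130.2 to 3900.2, adjusted p = 0.0128). SLC46A3, a lysosomal transporter, rose from 0.0253 and 0 to 1.45 and 2.603 CPM (ratio 165, 95% counting interval 45.2 to 1365, adjusted p = 0.00765). Of these, MYO1H reached only 0.1198 and 0.242 CPM in DKO, while TUBA3C had 11.2 and 13.7 CPM there and IKZF3 10.7 and 10.5.

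The other 7 of the 12 largest rises are noncoding or pseudogene transcripts. PHKA1-AS1 had 0 counts in EV and 0.669 and 1.39 CPM in S2KO, at least 55.8-fold higher against a floor of 3 counts over the EV group. The pseudogenes PHF2P2, CENPIP1 and USP24P1, which lie beside TUBA3C on chromosome 13, had at most 0.0759 CPM in EV and at least 1.74 CPM in S2KO. LINC00879 had 3.103 and 3.18 CPM and AC090204.1 3.31 and 5.73 CPM in S2KO, both at most 0.0358 CPM in EV, and neither had any count in DKO. MEG3 is described with the imprinted genes. Leaving out 1 library ended the calls of AC090204.1, LINC00879, MEG3 and MYO1H without EV replicate 2 (adjusted p = 0.067, 0.0611, 0.0955 and 0.0586). Without EV replicate 1 those of AC090204.1, LINC00879, MEG3 and EPSTI1 were lost (0.0931, 0.0804, 0.083 and 0.0507), and without S2KO replicate 2 that of AC090204.1 (0.0656). The TUBA3C promoter (GRCh38.p14, chr13:19181775-19182074, minus strand, 20 CG pairs in capitals) is printed as that of the largest rise.

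TUBA3C: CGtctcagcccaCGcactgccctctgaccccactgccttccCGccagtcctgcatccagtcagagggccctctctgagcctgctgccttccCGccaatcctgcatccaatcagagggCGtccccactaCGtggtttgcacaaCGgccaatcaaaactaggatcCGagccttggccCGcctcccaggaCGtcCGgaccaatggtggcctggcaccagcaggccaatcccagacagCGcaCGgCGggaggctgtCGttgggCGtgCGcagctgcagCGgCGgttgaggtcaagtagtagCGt

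The 12 largest falls began with S100A6. This calcium-binding protein had 13.5 and 5.304 CPM in EV and 0.0129 and 0.0263 in S2KO, 3 counts in all, a fold of 477 (95% counting interval 163 to 2314) lower (adjusted p = 0.00366). EPX, eosinophil peroxidase, fell from 6.19 and 4.16 to 0.116 and 0.0394 CPM (log2 -6.03 ± 0.66, adjusted p = 0.00904). Both IL1RL1, the receptor for interleukin 33, and IL18R1, a receptor chain for interleukin 18, fell. IL1RL1 had 10.1 and 11.5 CPM in EV and 0.3605 and 0.355 in S2KO (log2 -4.91 ± 0.30, adjusted p = 0.00131), and IL18R1 had 10.5 and 17.8 CPM in EV and 0.2703 and 0.4601 in S2KO (log2 -5.27 ± 0.60, adjusted p = 0.0101). The 2 genes are neighbours on chromosome 2, and IL18RAP beside them was called lower as well. GPR174, a lysophosphatidylserine receptor of lymphocytes, went from 4.22 and 7.49 to 0.0386 and 0.0526 CPM, a call lost without any 1 library (adjusted p = 0.0582 to 0.0984).

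TGFBR2, the type II receptor for TGF-beta, had 16.98 and 15.1 CPM in EV and 0.566 and 0.894 in S2KO (log2 -4.46 ± 0.46, adjusted p = 0.00679). ADAMTS9, a secreted metalloprotease, had 12.3 and 12.5 CPM in EV and 0.232 and 0.263 in S2KO (log2 -5.64 ± 0.35, adjusted p = 0.00131). In S1KO and DKO TGFBR2 was lower still, at 0.04099 and 0.106 CPM in the first and 0.0342 and 0.0646 in the second, and S2KO was higher than S1KO (log2 3.29, adjusted p = 0.0344). SLC27A6, a fatty acid transporter, fell from 11.9 and 16.4 to 0.476 and 0.657 CPM and ENC1, an actin-binding BTB protein, from 10.5 and 13.4 to 0.605 and 0.421 CPM (adjusted p = 0.00252 and 0.00257). PLXNA2, a semaphorin receptor, had 3.31 and 0.992 CPM in EV and 0.116 and 0.0657 in S2KO, with a call (adjusted p = 0.0291) lost without EV replicate 1 (0.0508), S2KO replicate 1 (0.0888) or S2KO replicate 2 (0.150). The noncoding RNA AL445647.1 fell from 4.53 and 6.36 CPM in EV to 0.0386 and 0.0526 in S2KO, and LINC01793 from 1.64 and 2.37 to 0.0257 and 0.0131 CPM (3 counts left, a fold of 103 (95% counting interval 35.03 to 503) lower).

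**Figure D3:**
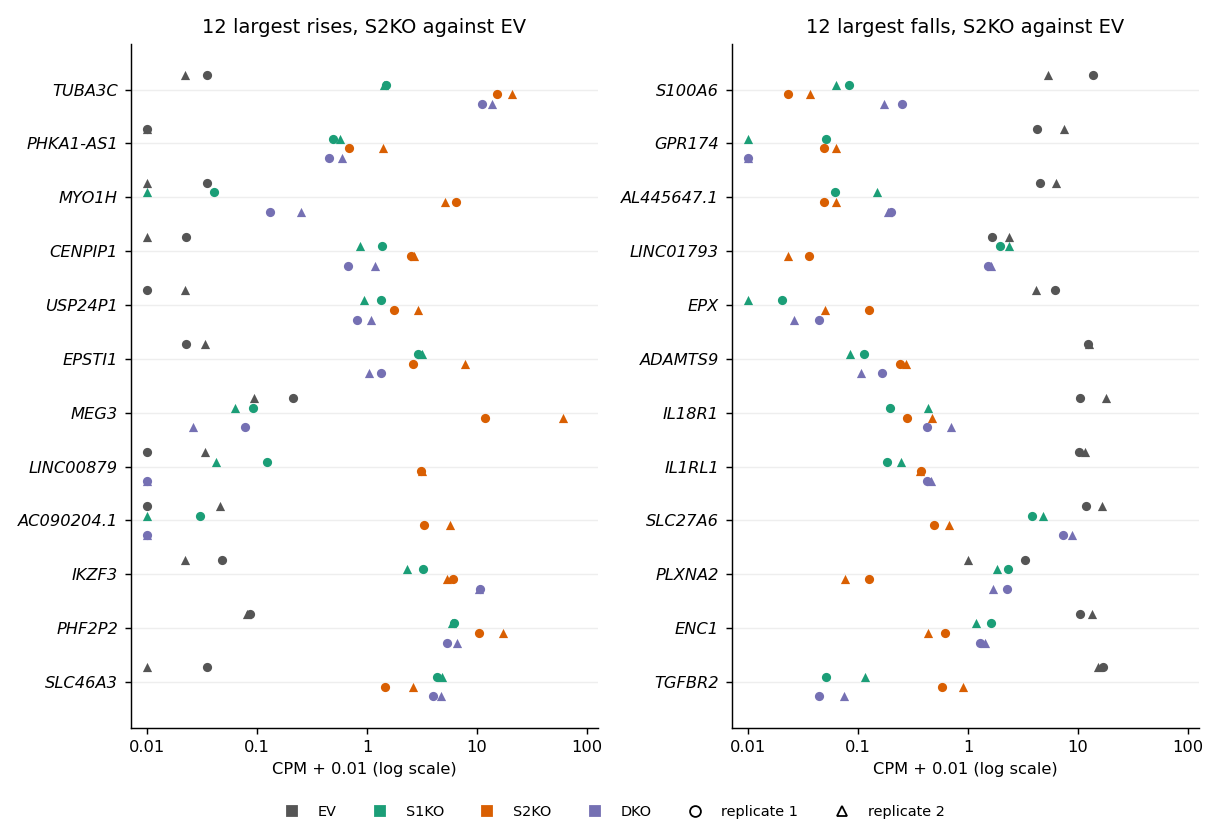
CPM with 0.01 added (log scale) of the 12 largest called rises (left) and falls (right) in each of the 8 excision libraries, coloured by group, with circles for replicate 1 and triangles for replicate 2. The genes were chosen to have separate EV and S2KO libraries. MEG3, MYO1H, LINC00879 and AC090204.1 are high in S2KO alone, and LINC01793 and PLXNA2 are low in S2KO alone.

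Some of the more abundant called genes that fell were named after their values were seen. FYB1, an adaptor of T cells and platelets, had 100.3 and 95.7 CPM in EV and 6.91 and 5.44 in S2KO (log2 -3.99 ± 0.22, edgeR adjusted p = 0.00117). CD53, a leukocyte tetraspanin, went from 107 and 117 to 13.1 and 16.7 CPM and CD24, a surface glycoprotein of immature blood cells, from 94.7 and 65.2 to 4.16 and 3.56 CPM (adjusted p = 0.00252 and 0.00257). ARHGAP15, an inhibitor of RAC, had 110.8 and 133 CPM in EV and 7.26 and 7.98 in S2KO (log2 -4.00 ± 0.22, adjusted p = 0.00117). These calls held without any 1 library. VIM, the intermediate filament vimentin, was the single call among 16 tested fibroblast and epithelial markers (6.25%, against 2.01% of all tested genes). It had 909 and 1176 CPM in EV and 251 and 329 in S2KO (log2 -1.85 ± 0.22, adjusted p = 0.0118).

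The myeloid list had 1 call, lower, among 18 tested genes (5.56%, against 0.554% of all tested genes called lower). Its median log2 difference was -1.26 against 0.018 over all genes. Of the 18 differences 12 were negative and 6 positive. The factors CEBPE (log2 5.39) and CEBPA (4.05) were among the positive ones, with no call. The called gene was LYZ, lysozyme, with 38.8 and 33.6 CPM in EV and 10.8 and 10.8 in S2KO (log2 -1.75 ± 0.21, adjusted p = 0.0113), a call lost without EV replicate 1 (0.0575) or S2KO replicate 2 (0.0604). SPI1, the myeloid master factor PU.1, had 17.9 and 33.1 CPM in EV and 4.004 and 10.99 in S2KO (log2 -1.77, adjusted p = 0.275). CD33, a sialic acid receptor of myeloid cells, had 59.9 and 73.9 CPM in EV and 13.6 and 28.2 in S2KO (log2 -1.68, adjusted p = 0.126). Both genes were higher in replicate 2 than in replicate 1 of each group. The summed level of the 18 genes was 149.7 and 281.0 CPM in EV and 76.1 and 251.1 CPM in S2KO, so the sums overlap. MS4A3, a gene of basophil and myeloid precursors, made up much of them, with means of 56.0 CPM in EV and 106.4 in S2KO (no call).

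Some red cell genes rose. Of 44 tested erythroid genes 6 were called, all higher (13.6%, against 1.45% of all tested genes), with a median log2 difference of 0.51. Of 12 globin genes 2 were called, both higher (16.7%), with a median of 2.00. HBE1, the embryonic epsilon globin, had 96.98 and 169 CPM in EV and 2669.7 and 1519 in S2KO (log2 3.98 ± 0.43, edgeR adjusted p = 0.00811). CA1, carbonic anhydrase of red cells, had 2.26 and 2.44 CPM in EV and 46.01 and 53.4 in S2KO (log2 4.40 ± 0.30, adjusted p = 0.00214), and CA2 rose from 0.0379 and 0.0239 to 4.26 and 3.602 CPM (adjusted p = 0.00257). ALAS2, the first enzyme of heme synthesis in red cells, went from 11.7 and 12.998 to 64.3 and 122 CPM (log2 2.92 ± 0.35, adjusted p = 0.0119). SLC4A1, the anion exchanger band 3, and the membrane skeleton genes EPB42 and DMTN were the other called members, with log2 differences of 3.55, 3.41 and 1.47. HBB, adult beta globin, had 1 count in EV and 72 in S2KO, a ratio of 76.2, 95% counting interval 13.3 to 3052.

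The calls of HBE1, CA1 and CA2 held without any 1 library. Those of ALAS2, SLC4A1, DMTN and HBB were lost without EV replicate 1 (adjusted p = 0.083, 0.0951, 0.0798 and 0.117) or EV replicate 2 (0.0689, 0.0643, 0.0744 and 0.167), that of HBB also without S2KO replicate 1 (0.0819) and that of DMTN without S2KO replicate 2 (0.0625). EPB42 lost its call without EV replicate 2 (0.0598), S2KO replicate 1 (0.0606) or S2KO replicate 2 (0.108). The fetal globins were high in both groups, with replicate 1 above replicate 2 in each. HBG2, fetal gamma globin with a near-identical partner HBG1, had 2864 and 1010.1 CPM in EV and 5064 and 2122 in S2KO (log2 0.89, adjusted p = 0.711), and HBZ, embryonic zeta globin, had 46.9 and 8.42 CPM in EV and 344 and 81.4 in S2KO (log2 2.94, adjusted p = 0.282). The transcription factors of the line were not called, GATA1 at log2 0.38 (adjusted p = 0.3804) and TAL1 at 0.30 (adjusted p = 0.576). In DKO HBE1 stood at 5967 and 6694 CPM and ALAS2 at 129.6 and 180.0, with no call against S2KO (adjusted p = 0.0933 and 0.325). S1KO was high in globins too. The 12 globins summed to 4841.5 and 1805.8 CPM in EV, 11629.5 and 4986.0 in S2KO and 15469.8 and 8695.6 in S1KO. No globin was called between S2KO and S1KO. Of the 44 erythroid genes 3 were, among them CA1 and CA2, both higher in S2KO.

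GATA1 binds motifs around the letters GATA, and the longer word AGATAA (either strand) was sought in the promoters of 300 bases. It occurred in 6.23% of the 12284 promoters of tested genes, in 9.68% of 186 promoters of genes called higher, in 8.75% of 80 called lower and in 39.4% of 33 on the erythroid and globin lists. A match is a description of the letters, not a site in use. The ALAS2 promoter (GRCh38.p14, chrX:55030928-55031227, minus strand) is shown with its match in capitals, read as TTATCT on the printed strand.

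ALAS2: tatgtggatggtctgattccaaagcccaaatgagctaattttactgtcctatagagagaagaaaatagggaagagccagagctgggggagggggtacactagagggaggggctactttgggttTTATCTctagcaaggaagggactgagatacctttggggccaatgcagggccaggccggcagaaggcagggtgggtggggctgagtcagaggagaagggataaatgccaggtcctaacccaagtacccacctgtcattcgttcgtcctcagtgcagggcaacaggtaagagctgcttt

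Platelet genes of the megakaryocytic list gave 2 calls, both higher, among 15 tested (13.3%, against 1.45% of all tested genes, median 0.77). GP1BB, a chain of the von Willebrand factor receptor, had 4.44 and 3.27 CPM in EV and 28.1 and 28.3 in S2KO (log2 2.87 ± 0.24, adjusted p = 0.00389). RAB27B, a GTPase of granule release, had 2.02 and 3.29 CPM in EV and 15.1 and 25.5 in S2KO (adjusted p = 0.0116), lost without EV replicate 1 (0.0575). No gene was called among 9 lymphoid markers.

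**Figure D4:**
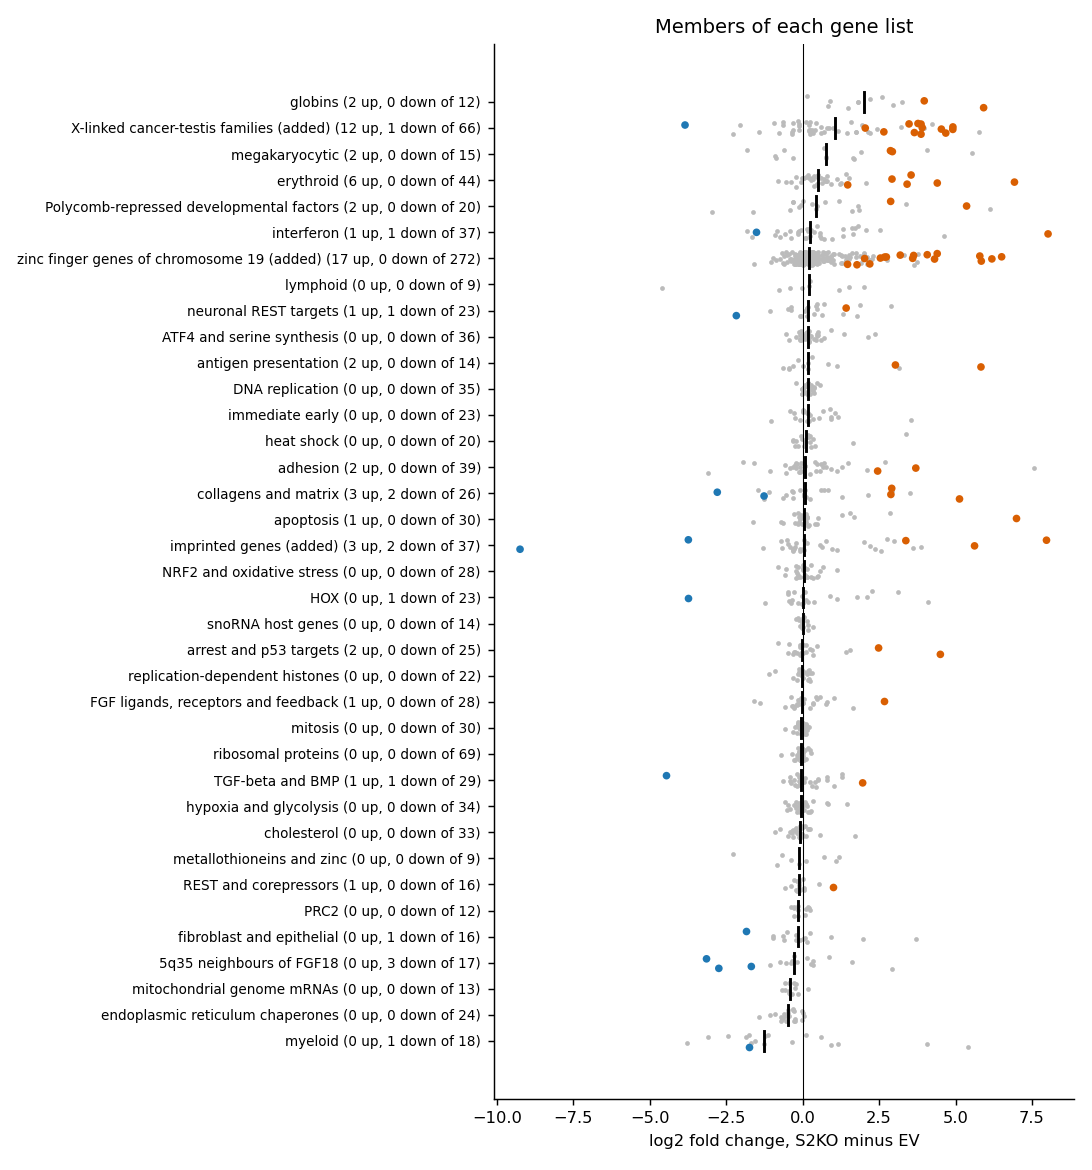
Log2 fold change of S2KO against EV for each tested member of 37 gene lists, with called rises in orange, called falls in blue, other members in grey and the list median as a black bar. Lists are ordered by median, from globins (2.00) and X-linked cancer-testis families (1.07) down to myeloid genes (-1.26), and those marked as added were drawn up after the values were seen.

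Members of the cancer-testis families on chromosome X, germ cell genes that tumours can switch on, were also among the rises. The list was drawn up after the calls were seen, so its count is a description: 12 of 66 tested members were called higher and 1 lower, with a median of 1.07. Over all tested genes 1.45% were called higher and 0.554% lower. The 12 CT47A copies among them are not separate signals, since 8 have the same log2 value and the called CT47A6 and CT47A12 have the same counts. Without CT47A, 10 of 54 were called higher and 1 lower, with a median of 0.60. PAGE5 had 4.33 and 4.55 CPM in EV and 63.96 and 69.3 in S2KO (log2 3.91 ± 0.15, edgeR adjusted p = 0.000588). MAGEC2 had 14.7 and 13.4 CPM in EV and 90.99 and 85.9 in S2KO (log2 2.65 ± 0.14, adjusted p = 0.00101), and VCX3A, 1 of 3 called VCX genes with near-identical sequences, had 2.19 and 3.68 CPM in EV and 62.7 and 114 in S2KO (log2 4.91 ± 0.43, adjusted p = 0.00439). CTAG2 went the other way, from 18.2 and 13.8 to 0.824 and 1.39 CPM (adjusted p = 0.00727). PAGE5 was at 86.8 and 77.6 CPM in S1KO and 103 and 109 in DKO, and VCX3A was at 3.45 and 5.19 CPM in S1KO and 85.97 and 84.96 in DKO. The PAGE5 promoter (GRCh38.p14, chrX:55220096-55220395, plus strand) holds 10 CG pairs, in capitals. Promoters of genes called higher had a median of 18 such pairs, those called lower 23 and all tested genes 25.

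PAGE5: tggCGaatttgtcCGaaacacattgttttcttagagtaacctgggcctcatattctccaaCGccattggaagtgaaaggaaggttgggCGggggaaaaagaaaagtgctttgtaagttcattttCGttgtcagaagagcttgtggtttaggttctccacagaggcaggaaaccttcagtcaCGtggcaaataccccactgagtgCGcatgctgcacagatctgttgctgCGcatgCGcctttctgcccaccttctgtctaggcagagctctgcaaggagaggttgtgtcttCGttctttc

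Chromosome X and chromosome 13 had the largest shares of called genes, 35 of 715 tested (4.90%) and 18 of 340 (5.29%), against 2.01% of all tested genes. Their calls are not all separate signals. On chromosome X they include CT47A6 and CT47A12, which have the same counts, and the near-identical VCX genes. On chromosome 13 they include the run of neighbours given below. On chromosome 5, which carries FGF18, 30 of 977 were called (3.07%), 17 of them lower. Along the chromosomes some calls were close neighbours. The runs of 15 tested genes given here were picked as those with the most calls in that direction on their chromosome. In a window of 15 tested genes on chromosome 19, from ZNF257 to ZNF91, 8 were called higher, among them ZNF724, ZNF728 and ZNF730. These are KRAB zinc finger genes, which encode repressors of retroelements, and ZNF728 had 0.202 and 0.275 CPM in EV and 13.4 and 13.2 in S2KO (log2 5.79 ± 0.35, adjusted p = 0.00131). ZNF724 had 0.304 and 0.394 CPM in EV and 16.9 and 23.3 in S2KO and ZNF730 0.0885 and 0.275 CPM in EV and 8.896 and 17.9 in S2KO (adjusted p = 0.00176 and 0.00856). In all, 17 of 272 tested zinc finger genes of chromosome 19 were called higher and none lower (6.25%, against 1.45% of all tested genes called higher, median 0.20). This is another list made after the calls were seen. Within 15 genes on chromosome 13, 6 were called higher, TUBA3C and its pseudogene neighbours included, and on chromosome 5 OSMR, RICTOR, FYB1 and OXCT1 were called lower within 15 genes.

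Imprinted genes, which are expressed from 1 parental copy, gave 3 calls up and 2 down among 37 tested (13.5%, against 2.01% of all tested genes, median 0.05). This list was made after the calls were seen. On chromosome 14 the noncoding RNA MEG3 and the growth regulator DLK1, neighbours that are normally expressed from opposite parental copies, changed in opposite directions. MEG3 had 0.202 and 0.0836 CPM in EV and 11.7 and 60.5 in S2KO (log2 7.97 ± 1.03, adjusted p = 0.0157), and MEG8, transcribed from the same cluster, had 0.177 and 0.167 CPM in EV and 5.37 and 11.7 in S2KO (adjusted p = 0.007196, lost without EV replicate 1 at 0.0575 or EV replicate 2 at 0.0586). DLK1 fell from 32.7 and 33.8 to 1.78 and 3.19 CPM (log2 -3.74 ± 0.32, adjusted p = 0.00412). In S1KO and DKO, MEG3 stood at 0.08197 and 0.0532 CPM and 0.0685 and 0.0162 CPM, and DLK1 at 6.84 and 6.99 CPM and 5.85 and 4.64 CPM, S1KO being given first. NDN, a growth suppressor on chromosome 15, rose from 0.582 and 1.25 to 9.32 and 9.75 CPM (adjusted p = 0.00962), and ZNF597 on chromosome 16 went from 1.18 and 0.753 CPM to no count in S2KO, at least 49.1-fold lower (adjusted p = 0.00516). The MEG3 promoter (GRCh38.p14, chr14:100825858-100826157, plus strand) holds 19 CG pairs.

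MEG3: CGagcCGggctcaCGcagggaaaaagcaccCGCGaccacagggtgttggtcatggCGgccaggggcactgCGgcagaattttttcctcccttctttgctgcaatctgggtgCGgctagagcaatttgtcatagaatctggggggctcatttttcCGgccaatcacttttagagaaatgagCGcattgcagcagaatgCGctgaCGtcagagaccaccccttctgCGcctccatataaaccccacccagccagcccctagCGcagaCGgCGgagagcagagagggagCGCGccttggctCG

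Of 52 listed developmental factors known for Polycomb repression, which was not measured here, 20 passed the count filter. A gene silent in EV could pass only through a group that expressed it, so the share called is partly set by the filter. Of the 20 tested, 2 were called higher (10.0%, against 1.45% of all tested genes, median 0.45). MSX1, a homeobox factor of limb and tooth, had 0.797 and 1.08 CPM in EV and 6.48 and 7.31 in S2KO (log2 2.88 ± 0.26, edgeR adjusted p = 0.00458), and GATA6, a factor of endoderm and heart, had 0.0379 and 0 CPM in EV and 0.811 and 0.841 in S2KO (adjusted p = 0.0437, lost without any 1 library, 0.0575 to 0.109). Of 23 tested HOX genes 1 was called, HOXC5, which fell from 0.342 and 0.227 to 0.0129 and 0.0263 CPM (adjusted p = 0.0454, 0.0987 to 0.169 without 1 library). Of 23 neuronal REST targets 2 were called (8.70%, against 2.01% of all tested genes), in opposite directions. SCG3, a secretory granule protein, rose from 3.12 and 2.48 to 7.22 and 7.79 CPM (log2 1.42 ± 0.17, adjusted p = 0.0106), a call lost without EV replicate 2 (0.0578). In S1KO it stood at 572 and 577 CPM and in DKO at 201 and 176, so S2KO was lower than S1KO (log2 -6.26 ± 0.20, adjusted p = 0.000272). GAD1, which makes the transmitter GABA, fell from 13.1 and 10.4 to 2.27 and 2.94 CPM (log2 -2.17 ± 0.24, adjusted p = 0.00904).

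In the FGF list, of 28 tested ligands, receptors and feedback genes, 1 was called (3.57%, against 2.01% of all tested genes, median -0.03). FGF13, an intracellular member that binds sodium channels rather than receptors, had 10.8 and 15.6 CPM in EV and 69.5 and 97.9 in S2KO (log2 2.67 ± 0.25, adjusted p = 0.00511). SPRY2, a feedback inhibitor of receptor tyrosine kinases, had 8.77 and 5.67 CPM in EV and 3.103 and 1.696 in S2KO (log2 -1.59, adjusted p = 0.122).

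Of 26 collagen and matrix genes 3 were called higher and 2 lower (19.2%, against 2.01% of all tested genes, median 0.06). SPARC, a matrix glycoprotein, rose from 2.998 and 2.23 to 88.2 and 94.8 CPM (log2 5.13 ± 0.24, adjusted p = 0.000723). The other rises were COL4A5, from 1.06 and 1.73 to 7.98 and 13.1 CPM, and COL6A1, from 0.215 and 0.346 to 1.699 and 2.47 CPM (adjusted p = 0.0203 and 0.0278). LAMB1, a laminin chain, fell from 28.2 and 65.2 to 4.88 and 8.58 CPM and COL4A2 from 6.08 and 6.31 to 2.27 and 2.89 (adjusted p = 0.0465 and 0.0409). Of these 5 calls that of SPARC held without any 1 library, COL4A2 losing it in each case (0.0843 to 0.134), COL4A5, COL6A1 and LAMB1 in 3 of 4 (up to 0.0958, 0.137 and 0.148). Among 39 adhesion genes ITGB5, an integrin beta chain, rose from 4.74 and 4.5996 to 27.4 and 23.7 CPM (log2 2.45 ± 0.18, adjusted p = 0.00252), and ITGA4 had 0.101 and 0.0239 CPM in EV and 0.991 and 0.657 in S2KO (adjusted p = 0.0437, 0.0546 to 0.118 without 1 library). ID3, a target of BMP signals, rose from 7.69 and 6.97 to 26.8 and 30.3 CPM (adjusted p = 0.0113, lost without EV replicate 1 at 0.0613 or EV replicate 2 at 0.0676), and with TGFBR2 made 2 calls among 29 genes of the TGF-beta and BMP list.

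FAS, the death receptor, rose from 0 and 0.0239 to 1.15 and 2.33 CPM (2 counts in EV, ratio 141, 95% counting interval 38.6 to 1169, edgeR adjusted p = 0.0102), 1 of 30 apoptosis genes. Over all tested genes 2.01% were called. TP73, a relative of p53, rose from 0.734 and 0.406 to 2.43 and 3.94 CPM and its other relative TP63 from 0.0379 and 0.0836 to 1.21 and 1.63 CPM (adjusted p = 0.0374 and 0.0476), 2 of 25 arrest genes, and both lost their calls without EV replicate 1 (0.0739 and 0.212), EV replicate 2 (0.143 and 0.161) or S2KO replicate 2 (0.110 and 0.124), TP63 also without S2KO replicate 1 (0.0778). Among 37 interferon genes EPSTI1 rose and IFITM3, a membrane protein that blocks virus entry, fell from 19.2 and 12.9 to 6.33 and 4.903 CPM (adjusted p = 0.0419, up to 0.174 without 1 library). HLA-B and PSMB8, of antigen presentation, were called higher among 14 tested from levels near 0, HLA-B with 0.373 and 1.196 CPM and PSMB8 with 0.425 and 0.802 CPM in S2KO (adjusted p = 0.0476 and 0.0304, each lost in 3 of 4 fits without 1 library, up to 0.176 and 0.169).

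No gene was called in 14 lists: mitosis (30 tested), DNA replication (35), ATF4 and serine synthesis (36), endoplasmic reticulum chaperones (24), heat shock (20), oxidative stress (28), cholesterol (33), hypoxia and glycolysis (34), metallothioneins (9), immediate early genes (23), histones (22), ribosomal proteins (69), mitochondrial mRNAs (13) and snoRNA hosts (14). With 2.01% of all tested genes called, lists of these sizes can lack a call without standing apart. PRC2 and lymphoid markers, given above, had none either. Among these the chaperones had a median of -0.48, 22 of 24 being lower, with CALR, a calcium-binding chaperone, at 618 and 1091 CPM in EV and 559 and 496 in S2KO (log2 -0.70, edgeR adjusted p = 0.421). DNA replication genes had a median of 0.17, 29 of 35 being higher. Mitochondrial mRNAs had a median of -0.40, MT-ND4 standing at 259 and 281 CPM in EV and 159 and 176 in S2KO (adjusted p = 0.0897). In simulated counts with these groups the test recovered 9 of 67 genes changed 2-fold, 54 of 67 changed 4-fold and 58 of 66 changed 8-fold. It also called 11 unchanged genes. Changes of 2-fold were thus mostly missed there. The simulation changed only genes above 1 CPM. It gave each gene 1 spread in all groups and no shift between replicates, so recovery in the real libraries may differ.

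S2KO was also tested directly against the other excised lines. Against S1KO 283 genes were called (1.33% of those tested), 147 higher (0.691%) and 136 lower in S2KO (0.639%), and DKO against S2KO gave 631 calls (2.96%), 342 higher (1.61%) and 289 lower in DKO (1.36%). Both comparisons use the S2KO libraries and so are not independent of the one with EV. Of the 427 genes called against EV, 278 had no call between S2KO and either of the other excised lines. S2KO was called higher than EV, S1KO and DKO alike in 22 genes and lower than all of them in 22. Some of these, named after their values were seen, are given here. ST8SIA4, which adds polysialic acid to proteins, had 11.7 and 12.1 CPM in S2KO against 0.987 and 1.15 in EV, 0.205 and 0.213 in S1KO and 0.445 and 0.582 in DKO (adjusted p = 0.00264, 0.0014001 and 0.00167). MRAS, a RAS-family GTPase, had 17.2 and 18.3 CPM in S2KO and 0.47 to 2.39 CPM in the other groups (adjusted p = 0.00303, 0.0148 and 0.00577). GSDMD, the pore-forming protein of pyroptosis, was low in S2KO at 0.579 and 0.723 CPM, with 8.42 and 9.9997 in EV, 7.11 and 9.74 in S1KO and 9.88 and 8.06 in DKO (adjusted p = 0.00257, 0.00415 and 0.002103). AKR1B1, aldose reductase, was instead shared, rising from 0.304 and 0.287 CPM in EV to 13.1 and 17.4 in S2KO (adjusted p = 0.000588), with 19.2 and 20.1 in S1KO and 18.8 and 18.5 in DKO and no call between the excised lines (adjusted p = 0.607 and 0.504).

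By their labels DKO and S1KO differ in silencer 2 as well, and their comparison shares no library with S2KO against EV. Both comparisons come from the same fit and share its estimate of each gene's spread, so their calls are not fully independent. DKO against S1KO gave 233 calls (1.09%), 133 higher (0.625%) and 100 lower (0.470%) in DKO. Of the genes called in either comparison 49 were called in both, 38 in the same direction (34 up, 4 down) and 11 in opposite directions. The 38 are 8.90% of the calls of S2KO against EV and 16.3% of those of DKO against S1KO. TUBA3C, CA1, VCX3A and MAGEC2 rose in both. VCX3A rose by 4.91 without silencer 2 alone and by 4.30 (± 0.42, adjusted p = 0.00913) where silencer 1 was gone too, CA1 by 4.40 and 3.05 (± 0.28, adjusted p = 0.00727). FAM133A, LINC00665 and MBNL3 were named after their values were seen. FAM133A, on chromosome X, went from 0.772 and 1.05 CPM in EV to 9.66 and 15.3 in S2KO, and from 0.328 and 0.362 in S1KO to 9.26 and 8.42 in DKO (adjusted p = 0.00413 and 0.00421). LINC00665 went from 2.505 and 2.78 to 29.4 and 24.5 CPM and from 2.203 and 3.13 to 12.99 and 13.4 CPM (adjusted p = 0.00252 and 0.01102). MBNL3, a splicing regulator, had 0.392 and 0.908 CPM in EV and 31.1 and 41.2 in S2KO, then 9.79 and 11.6 in S1KO and 83.3 and 77.998 in DKO (adjusted p = 0.00252 and 0.02204).

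CERS6, a ceramide synthase, was among the 11 that went opposite ways. It fell from 117 and 117 CPM in EV to 26.8 and 24.8 in S2KO (log2 -2.18 ± 0.17, edgeR adjusted p = 0.00264) and rose from 1.06 and 1.29 in S1KO to 5.101 and 4.25 in DKO (log2 2.00 ± 0.18, adjusted p = 0.00652). The test of whether these 2 log2 differences were unequal, the interaction term, was called for 222 genes (1.04%). Of these, 68 had a positive value (0.319%) and 154 a negative one (0.724%). It was called for 34 genes without DKO replicate 1, 33 without DKO replicate 2, 60 without S1KO replicate 1, 53 without S1KO replicate 2 and 103 to 155 without 1 EV or S2KO library. The number of calls of DKO against S1KO was between 17 and 36 with any 1 library left out, so both the 49 and the 38 rest on the full set of libraries.

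**Figure D5:**
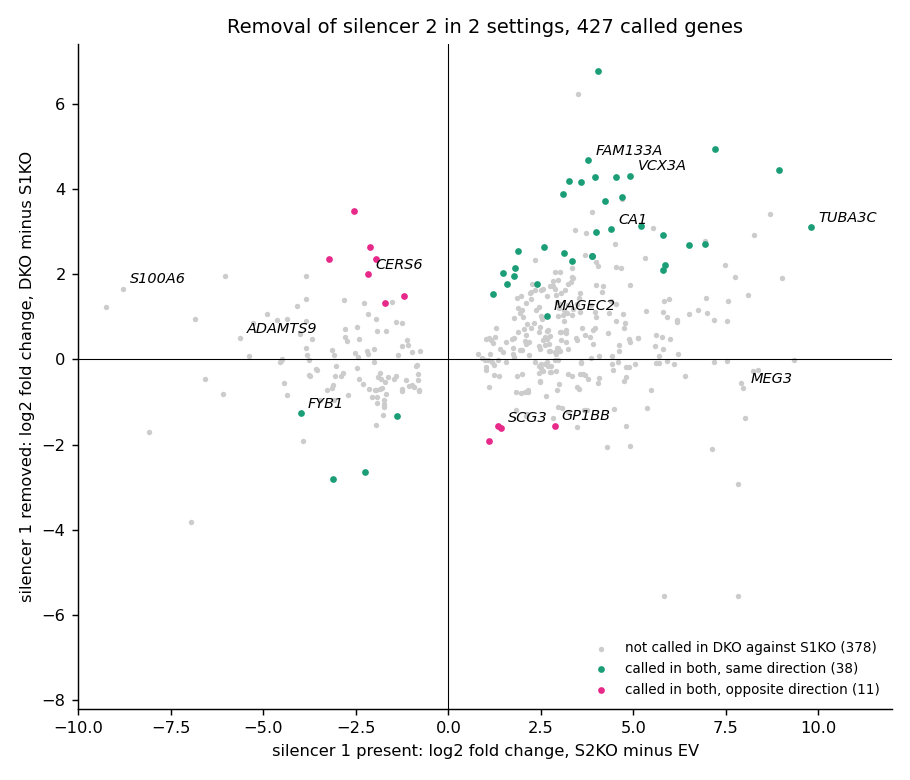
Log2 fold changes between lines without and with silencer 2, for the 427 genes called in S2KO against EV. Silencer 1 is present on the horizontal axis (S2KO minus EV) and removed on the vertical axis (DKO minus S1KO). Green points are called in both in the same direction (38), pink points in opposite directions (11). Grey points were not called in DKO against S1KO.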

How the data were processed

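Total RNA depleted of ribosomal RNA was sequenced as stranded libraries, per the labels. Reads were trimmed with Trimmomatic 0.38 and quantified per transcript with kallisto 0.44.0, and hg19 is the build named, per the submitters' processing notes; the annotation release is not given in the sources used here. The authors deposited estimated counts (expected counts, which need not be whole) and TPM per transcript. Transcripts were matched to GENCODE 29 names (182238 of 215170, 84.7%), summed to 53153 genes and rounded. Matched genes held 87.8% to 90.4% of estimated counts. The deposited TPM values were used only to scale counts in 1 alternative.

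The 8 excision libraries (55913480 to 98507663 estimated counts in genes) entered edgeR 4.0.16 (R 4.3.3) with 1 mean per group, filterByExpr (21285 genes tested), TMM scaling and robust quasi-likelihood tests, called at a Benjamini-Hochberg adjusted p of 0.05. Standard errors are approximate, taken from the fold change and the F statistic. Folds with 1 to 3 counts in a group carry 95% counting intervals, and folds against 0 counts use a floor of 3 counts over the group; both cover counting error only. The test was checked on simulated counts.

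Named genes were the 12 largest called rises and 12 largest falls with separate libraries, at 1 CPM or more in the higher group and without small RNAs or mitochondrial pseudogenes; 8 more each way called only with a replicate block; FGF18 and its neighbours; EZH2 and REST; and called members of 34 gene lists. The members and lists were chosen with earlier results of these data known, and 3 lists and some alternatives were added later. DESeq2 1.42.0 and limma 3.58.1 served alternatives and helper functions. Promoters are from RefSeq.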

Additional observations from a re-analysis of the deposited data

Results flagged for a closer look

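For 49 of the genes named, the differences S2KO against EV and DKO against S1KO were unlike. This is by edgeR's test of the interaction term at an adjusted p of 0.05. Cells of the first pair kept silencer 1 and those of the second lacked it. The values below are the second difference minus the first, on the log2 scale. Several of these genes had few or no counts in 1 group, and their values then depend on the prior count of the fit. All 4 groups enter each value. Most of these genes were named because S2KO differed from EV, and that difference enters the value with its sign reversed. A negative value for a rise and a positive value for a fall are thus partly built in by the choice of genes. Such calls depend on single libraries: over all genes there were 222, but 34 without DKO replicate 1, 33 without DKO replicate 2, 60 without S1KO replicate 1, 53 without S1KO replicate 2 and 103 to 155 without 1 EV or S2KO library.

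A negative value means that the gene was raised less, not at all, or lowered in DKO against S1KO, compared with S2KO against EV. Among the largest rises the values were LINC00879 -13.37, EPSTI1 -9.392, PHKA1-AS1 -9.353, CENPIP1 -8.634, USP24P1 -8.509, PHF2P2 -7.559, SLC46A3 -7.246, TUBA3C -6.708 and IKZF3 -5.825. TUBA3C had 3 counts in EV, 2766 in S2KO, 277 in S1KO and 1501 in DKO. Among other rises the values were AKR1B1 -5.763, MEG8 -5.709, ZNF730 -5.318, MRAS -5.26, SPARC -4.616, GP1BB -4.426, CA2 -4.229, ZNF728 -3.695 and RAB27B -3.656. Smaller ones were DCAF4L2 -3.646, ZNF724 -3.63, PAGE5 -3.542, SCG3 -3.027, ITGB5 -2.77, ID3 -2.754, MSX1 -2.699, FGF13 -2.191 and MAGEC2 -1.631. CALB1, a calcium buffer of neurons that was not called between S2KO and EV, had -4.192.

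A positive value means that the gene was lowered less, or raised, in DKO against S1KO. Above 5 were ZNF597 10.47, S100A6 10.45, AL445647.1 7.793, ADAMTS9 6.132, IL18R1 6.13, LINC01793 6.104, IL1RL1 5.985 and SLC27A6 5.552. S100A6, IL1RL1, IL18R1, ADAMTS9 and AL445647.1 were also low in S1KO, while SLC27A6, LINC01793 and ZNF597 were nearer their EV level there. Between 3 and 5 were ARHGAP15 4.588, ENC1 4.509, CERS6 4.175, CTAG2 4.118, GSDMD 3.91, CD24 3.525, DLK1 3.341 and C5orf58 3.17. The lowest were IFITM3 2.867, FYB1 2.719, CD53 2.521, GAD1 2.297 and COL4A2 2.116.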

How the results depend on the processing

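The number of genes called between S2KO and EV (427) was 424 with DESeq2's size factors, 536 with no filter and 357 with counts scaled from TPM. It was 1084 with DESeq2, 160 without the DKO libraries and 0 with only the 2 groups, where edgeR gave 1347 genes an unadjusted p under 0.05. Leaving out 1 library gave 157 to 329. S2KO against S1KO (283) gave 934 with DESeq2, 82 without the DKO libraries, 9 with only the 2 groups and 29 to 142 without 1 library. DKO against S2KO (631) gave 1576 with DESeq2, 312 with only the 2 groups and 101 to 302 without 1 library. DKO against S1KO (133 higher and 100 lower), whose alternatives were all chosen after seeing the data, gave 208 and 142 with no filter, 74 and 69 with counts scaled from TPM, 489 and 362 with DESeq2, 357 and 205 with only the 2 groups, and 4 to 7 higher and 11 to 30 lower without 1 library. The interaction (222), also tried later, gave 731 with DESeq2, 376 with the replicate block and 33 to 155 without 1 library. The causes were not tested, beyond the fewer samples in the fits that leave libraries out.

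With the replicate number as a block the calls rose to 716 (S2KO against EV), 575 (S2KO against S1KO), 1286 (DKO against S2KO) and 434 (DKO against S1KO, 253 higher and 181 lower). The block without the DKO libraries gave 1880 and 1811 for the first pair of comparisons, and with only the 2 groups 2682, 1713 and 552 for the first 3, and 407 higher and 236 lower for DKO against S1KO. Replicate deviations correlated at 0.622 between EV and S2KO, 0.488 between EV and S1KO and 0.566 between S1KO and S2KO, or 0.902, 0.792 and 0.871 above 8 CPM, and negatively with DKO. Each comparison has 2 pairs and the labels tie the numbers to no shared culture, so the block is not used above.

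Of the 84 named genes with a call, 84 kept it with DESeq2, 74 with counts scaled from TPM, 83 with no filter, 61 without the DKO libraries, 0 with only the 2 groups (82 with the block), 56 without EV replicate 1, 56 without EV replicate 2, 70 without S2KO replicate 1 and 63 without S2KO replicate 2. FGF18 (log2 0.34) ranged from -1.06 to 5.52 without 1 library, being -0.66 without EV replicate 2 and -1.06 without S2KO replicate 1. These uncalled genes changed sign without 1 library. DUSP1 ranged from -0.14 (without S2KO replicate 1) to 0.35, HBG1 from -0.071 (S2KO replicate 1) to 1.78 and KCNMB1 from -0.10 (S2KO replicate 1) to 0.66. EPB41L4A-AS1 ranged from -0.10 (S2KO replicate 2) to 0.40, FGF21 from -1.03 (S2KO replicate 2) to 5.60 and NUPR1 from -2.54 (S2KO replicate 2) to 5.14. GABRP ranged from -0.37 to 0.043 (EV replicate 1), REST from -0.025 (EV replicate 2; -0.015 without S2KO replicate 1) to 0.070, and RPL26L1 from -0.72 to 0.027 (S2KO replicate 2; 0.0080 without EV replicate 1).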

Other observations

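The next 4 genes were called only with the replicate number as a block, and were picked from those after their values were seen. LAPTM5, a lysosomal protein of blood cells, had 68.6 and 81.4 CPM in EV and 3.605 and 15.1 in S2KO (edgeR adjusted p = 0.0982). CORO1A, an actin regulator, had 17.2 and 24.3 CPM in EV and 1.57 and 4.53 in S2KO (adjusted p = 0.109), EVI2B 2.56 and 4.43 CPM in EV and 0.167 and 0.302 in S2KO (adjusted p = 0.0541) and ALOX5, which makes leukotrienes, 4.24 and 16.4 CPM in EV and 0.425 and 1.74 in S2KO (adjusted p = 0.143). These p-values are without the block, and groups that do not overlap, as in these 4 genes, occur in 31.8% of all tested genes.

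On chromosome 4, 6 genes within 15 tested genes were called higher, among them SLIT2, an axon guidance ligand, and SOD3, an extracellular superoxide dismutase. On chromosome X, VCX3A, VCX, VCX3B, FAM9B and WWC3 were called higher within 15 genes, the VCX genes being near-identical. Both windows were picked as those with the most such calls on their chromosome. Over all tested genes 1.45% were called higher. DCAF4L2 had 2.29 and 3.05 CPM in EV and 59.2 and 64.9 in S2KO (log2 4.54 ± 0.20, edgeR adjusted p = 0.000588).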
